A study of Mus musculus with 16 samples.

Results

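The data described here are the difference of differences between genotype and CFA in mouse thalamus: the change from naive to CFA in the libraries labelled RGS4KO, minus the same change in the wild-type (WT) libraries. All 16 libraries of the series enter it, in 4 groups of 4 by their titles: WT naive, WT CFA, RGS4KO naive and RGS4KO CFA. Each library is mRNA from punches of the ventral posterolateral thalamic nuclei, with 4 punches of 12 gauge pooled from 2 mice. By their labels all 4 groups share tissue and preparation, though marker levels differed between them (values below). The labels give neither age nor strain, nor the time after CFA, and they write CFA without spelling it out. The sample labels name the genotype RGS4KO only, whereas the text of the series describes floxed Rgs4 and a virus carrying Cre. The labels give female as the sex, but the protocol names male mice.

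RGS proteins speed the switching-off of G proteins after a receptor has activated them, and RGS4 acts on the Gi/o and Gq classes. The ventral posterolateral nucleus relays touch and pain signals from the body to the somatosensory cortex. An interaction asks whether the CFA change itself differs between the genotypes. A gene that differs between the genotypes equally in naive and CFA libraries has none.

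Libraries held from 18057885 to 78773967 counts, and the RGS4KO naive libraries, from 18057885 to 43653243, were on average the shallowest group. Rgs4, the targeted gene (chr1:169741477-169747642), was present in the libraries labelled RGS4KO at levels close to those of WT: its mean was 80.9 counts per 1000000 (CPM) in WT naive, 81.3 in RGS4KO naive, 89.3 in WT CFA and 84.1 in RGS4KO CFA. A count over the whole gene can include exons that a deletion leaves, so this is no check of the protein, and "RGS4KO" below means the libraries so labelled. The interaction of Rgs4 was -0.10 on the log2 scale (SE 0.07, 95% interval -0.25 to 0.06, adjusted p = 0.693). The thalamic genes Tcf7l2 (128 to 156 CPM over the group means) and Slc17a6 (461 to 492 CPM) were present. Gbx2, a transcription factor of thalamic neurons, had between 0 and 13 counts a library and was not tested. Markers of serotonin neurons, which lie in the raphe of the brainstem and not in the thalamus, were abundant, with a mean of 477 CPM for Tph2 in WT naive.

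Of 18350 genes tested, 12 had an interaction at an adjusted p under 0.05, which is 0.0654%. In 2 of them (0.0109%) the CFA change was higher in RGS4KO than in WT, and in 10 (0.0545%) it was lower. An unadjusted p under 0.05 was found for 1810 genes (9.86%), 821 higher (4.47%) and 989 lower (5.39%). The median interaction over all tested genes was 0.0 and its median size was 0.088 on the log2 scale. The 12 genes fall into 3 forms, described from the fitted changes and not tested. In 8 genes the larger share of the interaction came from a CFA change in WT, in 2 from a change in RGS4KO, and in 2 from changes of opposite sign and more equal size. A gene went to the first form when the WT change, with its sign turned, made up between 0.667 and 1.333 of the interaction. It went to the second below 0.333 in size, and to the third between those bounds. By the same bounds, the genotype difference lay mainly in naive libraries for 3 of the 10 lower genes and mainly in CFA libraries for 1. For 6 it turned over, with opposite signs of more equal size.

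The count changed when marker scores entered the fit. A joint score of midbrain markers was taken over 33 genes of the serotonin, dopamine, and Edinger-Westphal and oculomotor lists. With this 1 score as a covariate 160 genes were called, all 12 among them. The standard errors of the 12 were then 0.84 to 1.05 times as large. Marker lists of serotonin neurons and of the Edinger-Westphal and oculomotor nuclei, both midbrain or brainstem populations, differed between the groups (values below). They enter the joint score with median interactions of opposite sign (1.31 and -2.16), so that score cannot stand for either list alone. With the scores of these 2 lists as covariates, an alternative added after seeing the data, 0 genes were called, and 633 had an unadjusted p under 0.05. All 12 genes kept their sign in that fit and 8 kept an unadjusted p under 0.05, while their standard errors were 1.64 to 2.21 times as large. The scores move with the groups, so their part in these 12 interactions and that of genotype and CFA cannot be told apart.

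**Figure D1:**
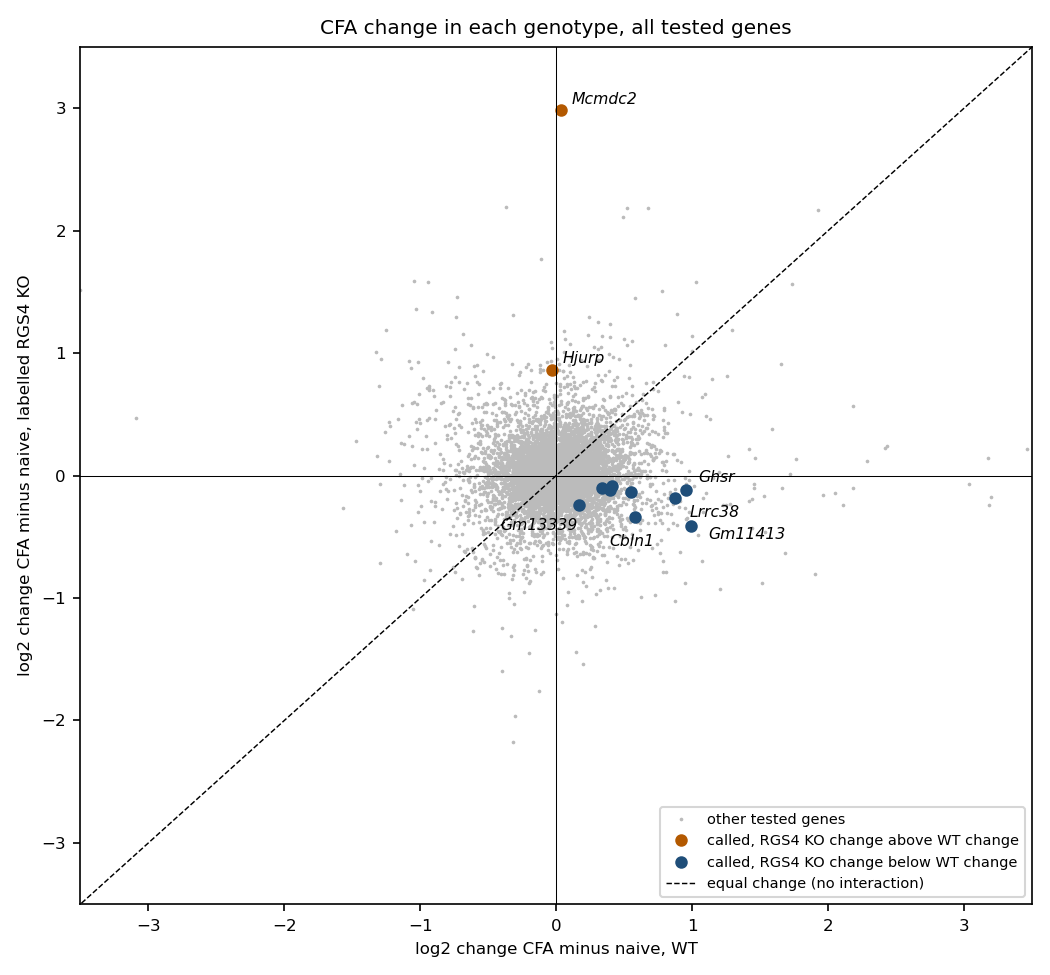
Log2 change from naive to CFA in WT (horizontal axis) and in the libraries labelled RGS4KO (vertical axis), with 1 point for each tested gene other than 1 called gene not reported here. The dashed line marks equal change, and 6 genes lie outside the axes. The 9 blue genes lie right of the vertical zero line and below the horizontal one, and the 2 orange genes, Hjurp and Mcmdc2, lie close to the vertical zero line.

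Promoters of 3 genes of the first form that differ in function (Ghsr, a hormone receptor, Prss12, a protease, and Pcdh9, an adhesion protein) show what sequence lies at their starts. Each is 250 bases before to 50 after the start, 5′ to 3′ on the gene's strand, from RefSeq with build GRCm38.p6. The capitals mark a match to the half-site of the cAMP response element, TGACG or its reverse complement CGTCA. This element is bound by CREB, a factor activated by cAMP signalling, and the motif was chosen after these letters had been seen.
Ghsr, chr3:27371101-27371400, plus strand: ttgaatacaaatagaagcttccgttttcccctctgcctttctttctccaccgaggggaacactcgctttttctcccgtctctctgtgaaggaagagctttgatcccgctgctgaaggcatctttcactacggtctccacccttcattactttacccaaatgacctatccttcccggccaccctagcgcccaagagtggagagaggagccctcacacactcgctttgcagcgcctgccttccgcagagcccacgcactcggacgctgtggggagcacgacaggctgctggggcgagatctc
Prss12, chr3:123446663-123446962, plus strand: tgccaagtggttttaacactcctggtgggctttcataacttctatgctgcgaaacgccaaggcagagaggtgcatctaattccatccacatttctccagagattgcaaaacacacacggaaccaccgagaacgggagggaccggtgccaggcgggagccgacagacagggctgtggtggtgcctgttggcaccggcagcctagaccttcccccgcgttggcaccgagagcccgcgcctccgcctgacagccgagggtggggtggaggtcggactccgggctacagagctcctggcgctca
Pcdh9, chr14:93890630-93890929, minus strand: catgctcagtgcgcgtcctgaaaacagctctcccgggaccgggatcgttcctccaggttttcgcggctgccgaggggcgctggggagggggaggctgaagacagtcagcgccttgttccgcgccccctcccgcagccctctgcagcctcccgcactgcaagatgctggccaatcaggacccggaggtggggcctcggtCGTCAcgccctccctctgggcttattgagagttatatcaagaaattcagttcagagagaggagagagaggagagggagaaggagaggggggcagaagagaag
Of the 12 genes, 7 had a promoter in the table, and the half-site occurred in 1 of those 7, against 21.0% of all 27025 promoters. The full element TGACGTCA, which contains the half-site, occurred in 0 of the 7 and in 1.9% of all promoters. A match is a run of letters and not a bound site.

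Among the 8 genes of the first form, the largest interaction of a gene with a name was that of Ghsr (chr3:27371351-27378010), the receptor for the stomach hormone ghrelin. In WT it read 5.17, 4.78, 5.79 and 5.44 CPM in naive and 9.62, 10.2, 10.8 and 10.5 CPM in CFA libraries. In RGS4KO it read 6.59, 9.38, 7.29 and 6.24 CPM in naive and 6.36, 6.36, 6.48 and 7.77 CPM in CFA libraries. The WT groups were fully apart, and the RGS4KO groups overlapped between them. The log2 CFA change was 0.96 in WT and -0.12 in RGS4KO, an interaction of -1.07 (SE 0.15, 95% interval -1.38 to -0.77, adjusted p = 0.00315).

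Prss12 (chr3:123446913-123506597) encodes neurotrypsin, a protease secreted at synapses that cleaves agrin. Its WT libraries read 6.13, 5.98, 5.74 and 6.01 CPM in naive and 9.44, 7.95, 8.79 and 8.7 CPM in CFA. Its RGS4KO libraries read 6.71, 7.87, 7.56 and 7.63 CPM in naive and 6.76, 6.55, 6.69 and 6.95 CPM in CFA. Every RGS4KO library lay above every WT naive library and below every WT CFA library. It shares a stretch of 157 identical bases with the gene Gm35065, so a part of its reads is uncertain between them. The interaction was -0.68 (SE 0.10, adjusted p = 0.00435), from log2 changes of 0.55 in WT and -0.14 in RGS4KO.

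Gm11413 (chr4:83378317-83390668) is a predicted antisense transcript at low level. Its means were 0.576 CPM in WT naive, 1.14 in WT CFA, 1.13 in RGS4KO naive and 0.846 in RGS4KO CFA. The interaction was -1.41 (SE 0.23, adjusted p = 0.017), the most negative of the 10. The longest Gm11413 transcript had no long stretch in common with another gene. The TruSeq RNA kit named in the labels does not mark strand. Reads from any shorter stretch shared with an overlapping gene therefore cannot be told apart by strand.

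A further 4 genes of this form were Ndst4, Pcdh9, Slit3 and Lrrc38. Ndst4 (chr3:125404076-125728899), an enzyme that sulfates heparan sulfate, had means of 14.8 CPM in WT naive, 19.4 in WT CFA, 16.5 in RGS4KO naive and 15.1 in RGS4KO CFA, and an interaction of -0.51 (SE 0.09, adjusted p = 0.0377). Pcdh9 (chr14:93013410-93890679), a protocadherin of neuronal contacts, had means of 130 CPM in WT naive, 164 in WT CFA, 148 in RGS4KO naive and 138 in RGS4KO CFA, with -0.43 (SE 0.08, adjusted p = 0.0377). Slit3 (chr11:35121224-35708507), a secreted guidance ligand of Robo receptors, had means of 12.8, 17, 15 and 14.1 CPM in that order, with -0.49 (SE 0.09, adjusted p = 0.0402). In each of these the WT CFA mean was the highest and the WT naive mean the lowest. Lrrc38 (chr4:143349757-143371032), an auxiliary subunit of calcium-activated potassium channels, had means of 1.32, 2.39, 2.20 and 1.91 CPM in the same order, with -1.06 (SE 0.19, adjusted p = 0.0402).

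Cbln1 and Gm13339 had CFA changes of opposite sign and more equal size in the 2 genotypes. The described genes of the first form also rose in WT and fell in RGS4KO, but the WT change made up more of the interaction. Gm11413, at 0.99 and -0.41, fell further in RGS4KO than Cbln1 or Gm13339. Cbln1 (chr8:87468405-87472609) encodes a secreted protein that joins neurexins to glutamate delta receptors across the synapse. Its WT libraries read 16.8, 13.9, 17.6 and 15.2 CPM in naive and 20.8, 22.3, 28.9 and 22.7 CPM in CFA. Its RGS4KO libraries read 19.8, 22.1, 22.1 and 24.4 CPM in naive and 18.3, 18.7, 17 and 15.6 CPM in CFA. Naive and CFA libraries were apart in both genotypes, with CFA high in WT and low in RGS4KO. The log2 changes were 0.58 and -0.34, an interaction of -0.92 (SE 0.14, adjusted p = 0.0217). Cbln1 shares its locus with the tested gene Gm2694 on the other strand. A search with the longest Cbln1 transcript found no long stretch shared with another gene. Reads from any shorter shared stretch cannot be told apart by strand.

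Gm13339 (chr2:22590024-22590533), named here after its values were seen, is an unprocessed pseudogene whose 510 bases are 96.667% identical to the mitochondrial gene mt-Nd2. Its means were 938 CPM in WT naive, 1055 in WT CFA, 1232 in RGS4KO naive and 1043 in RGS4KO CFA, with an interaction of -0.41 (SE 0.07, adjusted p = 0.0469). All 37 mitochondrial genes are listed at 0 in every library, so its count is uncertain between the pseudogene and mt-Nd2. The pseudogene Gm10222 had an interaction of -0.32 (adjusted p = 0.0999) and Gm13340 one of -0.23 (adjusted p = 0.121), both not past the threshold.

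Hjurp and Mcmdc2 were the 2 genes with a higher CFA change in RGS4KO. Hjurp (chr1:88262471-88277633) encodes the chaperone that places the centromeric histone CENP-A. In WT it read 196, 174, 199 and 206 CPM in naive and 194, 186, 191 and 190 CPM in CFA libraries. In RGS4KO it read 50.1, 39.3, 41.9 and 41.7 CPM in naive and 73.9, 81.6, 83.1 and 79.3 CPM in CFA libraries. The WT groups overlapped, both RGS4KO groups lay far below them, and the RGS4KO CFA libraries all lay above the RGS4KO naive ones. The log2 change was -0.03 in WT and 0.87 in RGS4KO, an interaction of 0.89 (SE 0.09, 95% interval 0.71 to 1.08, adjusted p = 0.000275).

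Mcmdc2 (chr1:9908638-9942085) encodes a protein of the MCM helicase family that acts in meiotic recombination. Its WT libraries read 2.84, 2.45, 3.18 and 3.23 CPM in naive and 3.53, 3.03, 2.53 and 2.92 CPM in CFA. Its RGS4KO libraries read 0.0689, 0.0865, 0.276 and 0.104 CPM in naive and 0.89, 0.979, 0.652 and 1.16 CPM in CFA. The RGS4KO naive libraries hold 13 counts in all (exact Poisson 95% interval 6.92 to 22.2) against 173 in RGS4KO CFA. After scaling to library size the ratio was 8.21, with a counting interval of 4.68 to 15.7. Both intervals pool the libraries of a group and leave out the spread between libraries. The interaction was 2.95 (SE 0.36, adjusted p = 0.000892), and at so few counts its size depends on the prior count of the fit. Mcmdc2 overlaps the tested gene Snhg6, of which it shares a stretch of 127 identical bases.

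Both genes lie on chromosome 1 (1062 genes tested there), as Rgs4 does, Hjurp 81.5 Mb and Mcmdc2 159.8 Mb from it. A link to the Rgs4 locus was not tested. Over all tested genes 0.0654% were called. Chromosome 3 held 3 of the 12 genes (of 882 tested there), with Prss12 and Ndst4 2.0 Mb apart. No called gene had another one within 1 Mb.

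**Figure D2:**
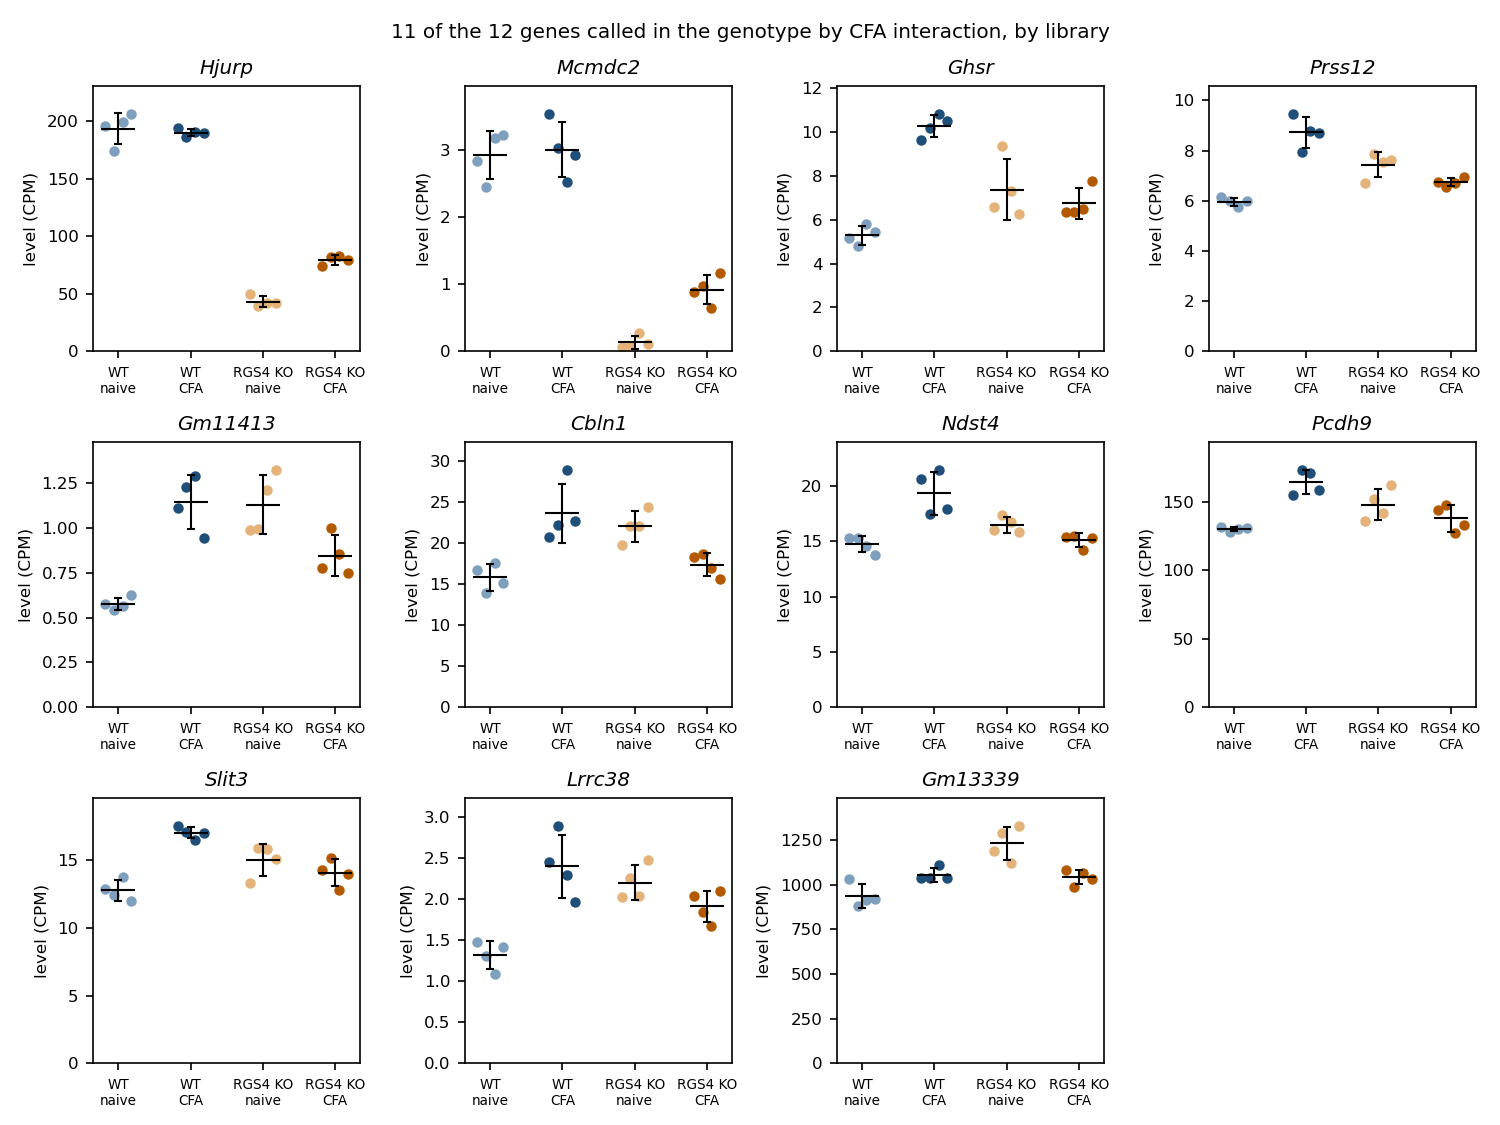
Level in CPM of 11 of the 12 genes in each library, by group, with the mean and SD of 4 libraries in black. Hjurp and Mcmdc2 sit far lower in RGS4KO than in WT, and in most of the others WT CFA is highest and WT naive lowest with RGS4KO between.

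In 9 of the 10 genes with a lower CFA change in RGS4KO, both RGS4KO means lay between the WT naive and the WT CFA mean. The share was 42.49% of the 1810 genes with an unadjusted p under 0.05 and 42.67% of the 989 lower ones among them. It was 19.99% of all tested genes with a lower change. Of the 2 higher called genes, 0 had this order. WT naive and WT CFA libraries did not overlap in any of the 10, RGS4KO naive and RGS4KO CFA did not in 3 (Cbln1, Ndst4 and Gm13339), WT naive and RGS4KO naive did not in 9, and WT CFA and RGS4KO CFA did not in 7. These genes were called from the same contrast (0.0545% of genes tested), so the separations describe them and are no further test. Among the 1810 genes, 829 (45.8%) took the form of a change in WT, 229 (12.65%) that of a change in RGS4KO, 711 (39.28%) that of opposite changes and 41 (2.27%) that of unequal changes in 1 direction.

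**Figure D3:**
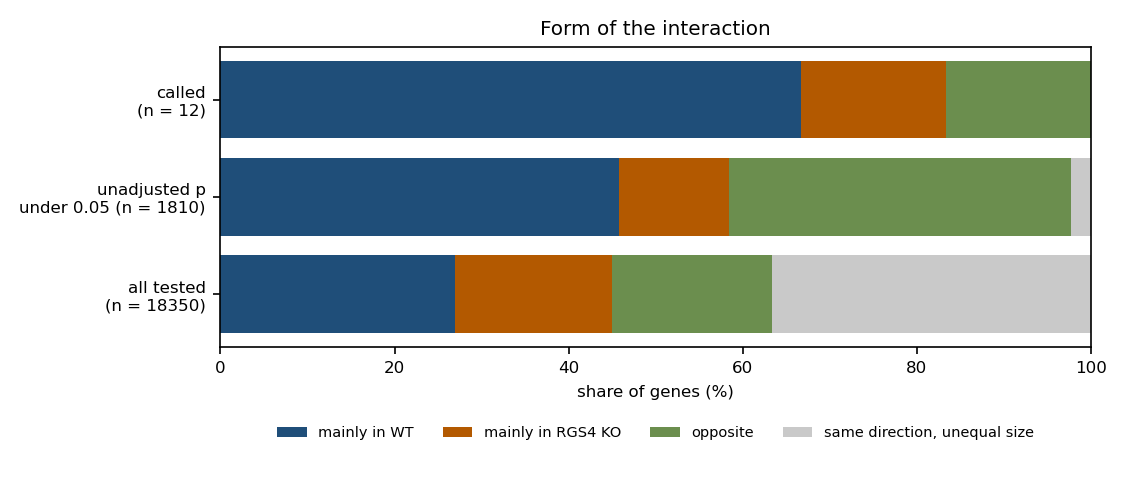
Share of genes (%, horizontal axis) with each form of interaction among all tested genes, the 1810 with an unadjusted p under 0.05 and the 12 called. The form with a change in WT makes up 66.67% of the called genes and 45.8% of the 1810.

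Several genes lay just outside the threshold. Ngfr, the low-affinity neurotrophin receptor, had a log2 change of -0.77 in WT and 0.31 in RGS4KO (interaction 1.08, adjusted p = 0.0577). Caln1, a neuronal calcium-binding protein, had an interaction of -0.30 (adjusted p = 0.0814), and Cplx2, which clamps synaptic vesicles, one of 0.32 (adjusted p = 0.0825). Sim1, a transcription factor of hypothalamic neurons, had one of -0.97 (adjusted p = 0.0825). Rps6ka2, Tpra1 and Cela1 had interactions of 0.27, 0.28 and -1.53 (adjusted p = 0.0825, 0.0825 and 0.0879). None of these genes passed the test.

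Of 43 lists of genes for signalling, pain-related transmission and cell types, 40 held 0 called genes, where 0.0654% of all tested genes were called, and Cbln1 was called in both the neuropeptide precursors (31 tested) and the thalamic relay markers (17 tested). Of 6 tested R4 family RGS genes, to which Rgs4 belongs, 1 had an unadjusted p under 0.05 (Rgs2, interaction 0.21, adjusted p = 0.491). Of 14 other RGS genes, 1 was higher (Rgs11, 0.36, adjusted p = 0.271) and 1 lower (Rgs7bp, -0.19, adjusted p = 0.429) at that level. Of 54 G protein and second messenger genes, 4 were higher and 5 lower, where 4.47% of all tested genes were higher and 5.39% lower at that level. Opioid receptors and peptides (8 tested), metabotropic glutamate receptors and Homer genes (10 tested) and TRP channels (18 tested) had 0 at an unadjusted p under 0.05.

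Of 41 potassium channel genes, 2 were higher and 7 lower at an unadjusted p under 0.05 (over all tested genes 4.47% and 5.39%, which holds for each list here), the foremost being Kcnn1, a small-conductance calcium-activated channel (interaction -0.39, adjusted p = 0.134). In 40 immediate early genes, which neurons switch on when active, 5 were higher and 1 lower. Klf2 was at 0.90 (adjusted p = 0.223), Npas4 at 0.35 (adjusted p = 0.38) and Nr4a2 at -1.03 (adjusted p = 0.21). Nr4a2 is also on the list of dopamine neuron markers. Of 73 nuclear genes of oxidative phosphorylation 0 were higher and 9 lower, with a median interaction of -0.08 against 0.0 over all genes. Interferon and inflammation genes (31 tested) had 3 higher and 0 lower, and microglia markers (18 tested) had 0.

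The 2 largest median interactions belonged to marker lists of cells from outside the thalamus. Of 11 oculomotor and Edinger-Westphal markers 0 were higher and 7 lower at an unadjusted p under 0.05 (4.47% and 5.39% of all tested genes), with a median interaction of -2.16 against 0.0 over all genes, and 0 were called. Cartpt, a peptide precursor abundant in these neurons, read 36.1, 28.2, 54.4 and 14.3 CPM in WT naive and 303, 228, 291 and 285 CPM in WT CFA libraries. In RGS4KO it read 32.7, 140, 219 and 49.5 CPM in naive and 50.9, 123, 72.0 and 166 CPM in CFA libraries, so the naive libraries fell wide apart. It had means of 33.2 CPM in WT naive, 277 in WT CFA, 110 in RGS4KO naive and 103 in RGS4KO CFA (interaction -3.10, adjusted p = 0.228). Ucn, the peptide urocortin, had 1.8, 17.6, 7.99 and 6.52 CPM in the same order (interaction -3.38, adjusted p = 0.3). No list member was at 0 in all libraries. The summed level of this list was 49.99 to 81.9 CPM in WT naive, 315 to 474 in WT CFA, 52.2 to 327 in RGS4KO naive and 91.8 to 243 in RGS4KO CFA. The WT groups were apart and the RGS4KO means lay between them, which is the order seen in the genes of the first form. Bulk libraries cannot tell fewer cells of a type from less RNA per cell.

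Serotonin neuron markers had the opposite sign, 7 higher and 0 lower of 11 at that level (4.47% and 5.39% of all tested genes), with a median interaction of 1.31 and 0 called. Tph2, the enzyme that makes serotonin, had means of 477 CPM in WT naive, 231 in WT CFA, 238 in RGS4KO naive and 357 in RGS4KO CFA (interaction 1.65, adjusted p = 0.498). The summed level was 975 to 2110 CPM in WT naive, 304 to 1210 in WT CFA, 426 to 1430 in RGS4KO naive and 1010 to 1430 in RGS4KO CFA. The groups overlapped for this list in RGS4KO and in WT. Reticular thalamus and zona incerta markers had 0 higher and 6 lower of 13 (median -0.24), and oligodendrocyte markers 0 higher and 3 lower of 20 (median -0.35). Thalamic relay markers had 2 higher and 3 lower of 17 at an unadjusted p under 0.05, against 4.47% and 5.39% of all genes, with a median of -0.04, and Cbln1 was their called member.

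**Figure D4:**
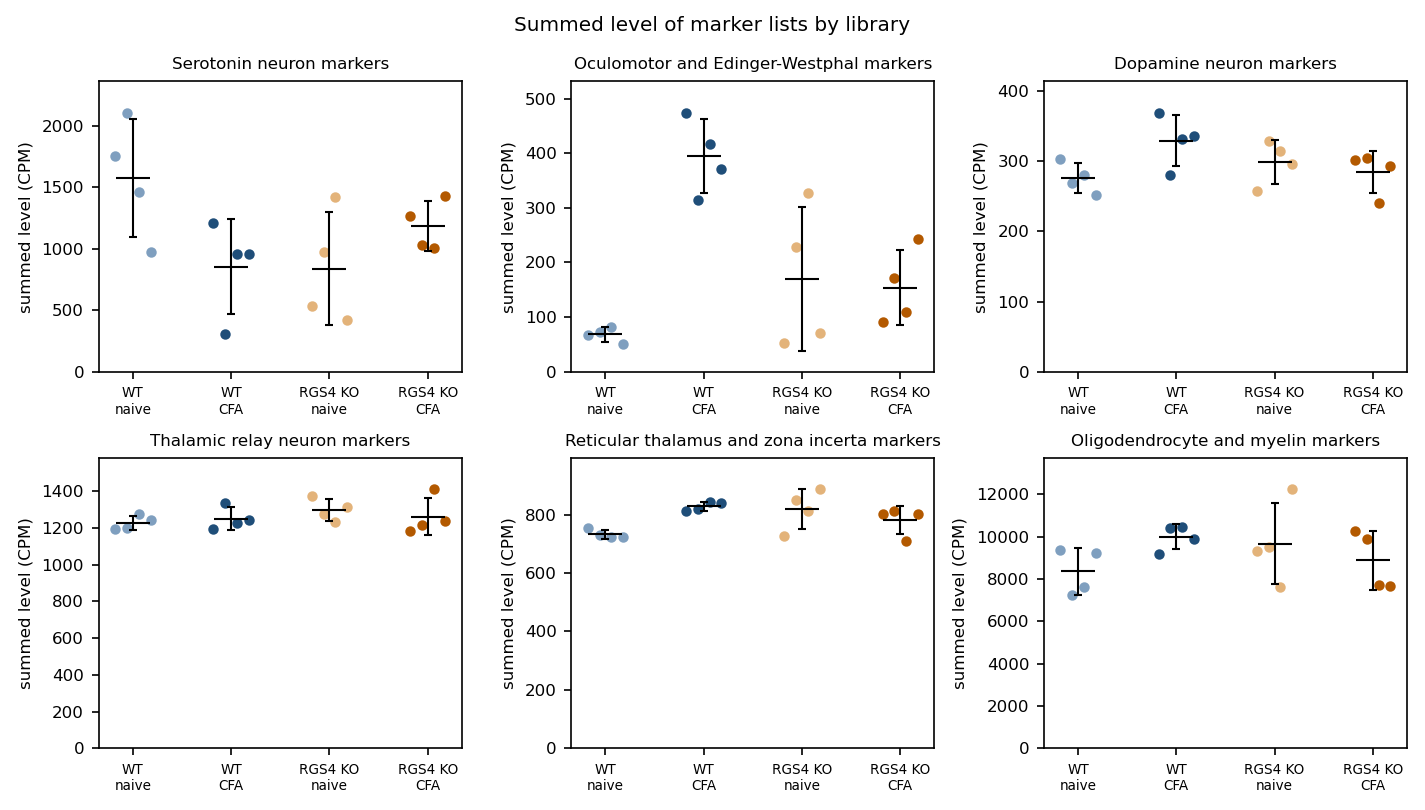
Summed level in CPM of 6 marker lists in each library, by group, with the mean and SD of 4 libraries in black. Edinger-Westphal markers are lowest in WT naive (49.99 to 81.9 CPM) and highest in WT CFA (315 to 474 CPM), and thalamic relay markers are nearly level across groups.

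In the fit with the serotonin and Edinger-Westphal scores the interaction was 0.76 (SE 0.16) for Hjurp and 3.65 (SE 0.59) for Mcmdc2. It was -0.72 (SE 0.26) for Ghsr, -0.73 (SE 0.19) for Prss12, -0.95 (SE 0.32) for Cbln1 and -0.60 (SE 0.16) for Ndst4. Those of Mcmdc2, Prss12, Cbln1, Ndst4 and Gm13339 (-0.47, SE 0.16) were farther from 0 than without the scores. Those of Hjurp, Ghsr, Gm11413 (-0.91, SE 0.44), Pcdh9 (-0.24, SE 0.14), Slit3 (-0.34, SE 0.17) and Lrrc38 (-0.44, SE 0.35) were nearer to 0. With an oligodendrocyte score, also added after seeing the data, 11 genes were called, 7 of them among the 12.

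Leaving out 1 library at a time gave between 5 and 27 called genes. Hjurp, Mcmdc2, Ghsr and Prss12 stayed called in all 16 such fits, Gm11413 in 12, Cbln1 in 10, Ndst4 in 5, Pcdh9, Slit3 and Lrrc38 in 4 each and Gm13339 in 3. The count was 5 without RGS4KO naive library 8 or RGS4KO CFA library 16, and 6 without WT naive library 4, RGS4KO naive library 6, WT CFA library 11, or RGS4KO CFA library 13 or 15. It was 25 without RGS4KO naive library 5 and 27 without RGS4KO naive library 7.

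**Figure D5:**
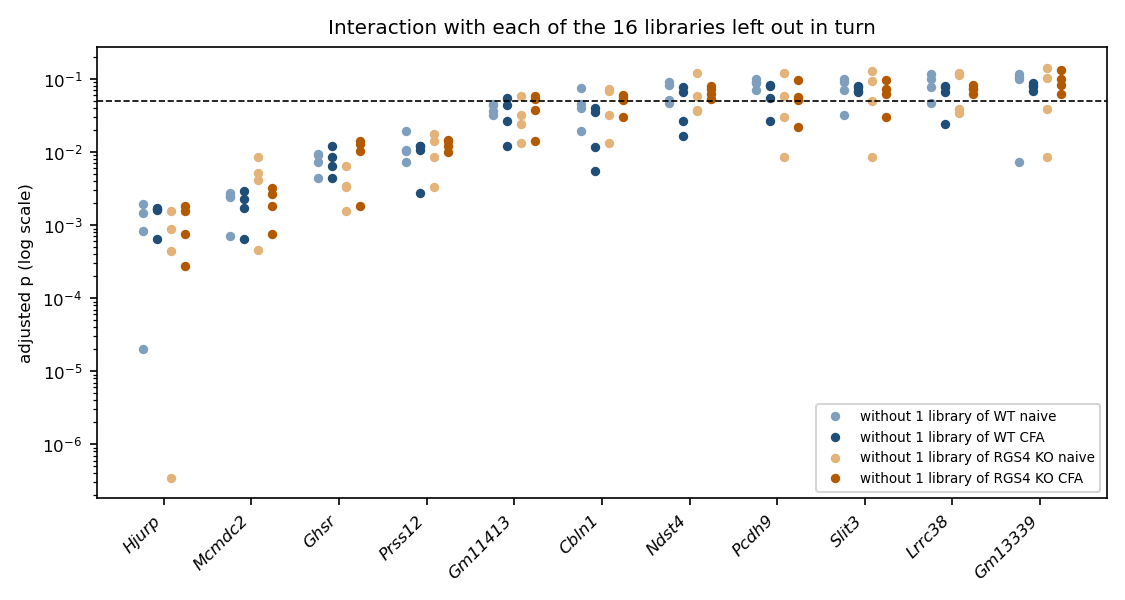
Adjusted p of 11 of the 12 genes (log scale) when each of the 16 libraries is left out in turn, coloured by the group of the library left out. The dashed line is 0.05. The first 4 genes stay under it in all 16 fits, and Gm13339 does so in 3.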

How the data were processed

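Thalamus mRNA was sequenced from 16 libraries, described per the labels as separate biological replicates, with 2 mice pooled in each. Each library has 1 table of unnormalized counts of reads by gene as deposited by the authors. The submitters' processing notes name TopHat, DESeq2 and build mm10. The form of the 5 summary lines is that of HTSeq. For tool versions, annotation release and the strand setting used in counting, the labels give nothing. Those lines, covering reads outside genes or ambiguous (37.999% to 39.895% of a library), were left out. Of 38924 gene IDs, 37607 matched GENCODE M21, which gave symbols and coordinates (GRCm38, mm10).

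Genes passing edgeR's count filter (minimum count 10) were fitted with edgeR 4.0.16 (R 4.3.3; TMM scaling, robust quasi-likelihood test, 4 group means), and p-values were adjusted by Benjamini-Hochberg over all 18350 genes. CPM uses TMM-scaled library sizes. Common biological variation was 6.1%. The naming rule gave Rgs4 and the called genes with a group mean of at least 1 CPM, up to 15 in each direction. It also gave the leading 4 of each form. From each gene list it gave up to 4 called members, or else the 2 of lowest p, by values only. Some list members that it gave, such as Grin3b, Postn, Chodl and Maob, are not described above. Values of 1 of the 12 called genes are not reported here; it stays in the counts. Predicted genes are named only among the first 3. Caln1, Rps6ka2, Tpra1, Cela1, Npas4, Tph2, Cartpt, Ucn, the tissue markers and the mitochondrial pseudogenes were named after their values were seen. Members and lists were chosen with earlier results of these data known. Marker scores are mean centred log2 CPM over a list. Replicates differed by more than sampling noise (chi-square per degree of freedom 3.38 to 13.22). Alternatives were DESeq2 1.42.0, limma voom 3.58.1, other scalings and filters, counts thinned to the smallest library, marker scores and leaving out libraries; 5 of them were added after seeing the data.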

Additional observations from a re-analysis of the deposited data

Results flagged for a closer look

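The interaction term passed its threshold in edgeR's test for 12 genes. Among these were Hjurp (0.89), Mcmdc2 (2.95), Ghsr (-1.07), Prss12 (-0.68), Gm11413 (-1.41) and Cbln1 (-0.92), on the log2 scale. Others were Ndst4 (-0.51), Pcdh9 (-0.43), Slit3 (-0.49), Lrrc38 (-1.06) and Gm13339 (-0.41). With serotonin and Edinger-Westphal scores in the fit, 0 of the 12 passed. The part of these scores cannot be told apart from that of genotype and CFA.

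Chance alone gives a library far from the other 3 of its group in about 1 in 20 groups. Such libraries were found in 17 of 364 groups of named genes, close to that share. Among the called genes these were Ghsr in RGS4KO CFA library 16 (7.77 CPM), Ndst4 in RGS4KO CFA library 15 (14.2 CPM) and Gm13339 in WT CFA library 11 (1111 CPM). In WT naive they were Emx1 in library 4 (0.544 CPM), Nfkbia in library 1 (15.5 CPM) and Cd55 in library 4 (6.44 CPM). In WT CFA they were Grin2c in library 11 (41.3 CPM), Htr1a in library 10 (30.2 CPM) and Aqp1 in library 9 (0.424 CPM). In RGS4KO naive they were Gna14 in library 5 (1.03 CPM), Chordc1 in library 8 (103 CPM), Slc1a2 in library 5 (1927 CPM) and Alas2 in library 8 (3.24 CPM). In RGS4KO CFA they were Gad2 in library 15 (498 CPM), Pax3 in library 16 (2.12 CPM), Selenos in library 13 (21.6 CPM) and Syt1 in library 16 (713 CPM).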

How the results depend on the processing

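No paired analysis was possible because the sample numbers run from 1 to 16 and no number is shared between groups. The 12 calls (2 higher, 10 lower; 8 by a change in WT, 2 by a change in RGS4KO, 2 opposite, 0 unequal) became 12 with RLE or upper quartile scaling, 11 with a mean of at least 1 CPM and 10 with thinned counts. DESeq2 gave 90 (28 higher, 62 lower; by form 52, 8, 29 and 1), all 12 among them. Limma voom and a fit without robust spread gave 7 each (5 lower; 4 by a change in WT, 1 opposite). Without a count filter there were 31 (10 higher, 21 lower; 21 by a change in WT, 6 opposite, 1 unequal). With the joint midbrain score there were 160 (104 higher, 56 lower; by form 121, 5, 31 and 3); its serotonin and Edinger-Westphal parts have opposite signs. With bounds of 0.2 on the form, 5 were by a change in WT and 5 opposite.

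Leaving out each library in turn gave 5 to 27 calls (2 to 8 higher, 3 to 23 lower; 3 to 14 by a change in WT, 2 to 7 by a change in RGS4KO, 0 to 8 opposite).

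Added after seeing the data were 5 alternatives. Without RGS4KO naive libraries 5 and 8 there were 19 calls (16 lower; 1 by a change in RGS4KO, 8 opposite), 7 shared with the 12; Mcmdc2 then had an adjusted p of 0.0513. Without RGS4KO naive libraries 7 and 8 there were 10 (3 by a change in WT, 5 by a change in RGS4KO), 6 shared. Without WT naive libraries 2 and 3 there were 5 (3 lower; 2 by a change in WT, 1 opposite), 3 shared. With the oligodendrocyte score there were 11 (0 opposite), and Rgs5 (0.015) and Tmem119 (0.011) turned sign. With the serotonin and Edinger-Westphal scores there were 0 in each direction and form, and the interaction turned sign for Rgs4 (0.047), Grm3 (0.008), Slc5a7 (1.70), Emx1 (0.072), Srebf1 (-0.011), Bhlhe40 (0.014), Cldn2 (-0.59) and Ccdc153 (-0.20), none of them called in either fit. Apart from the score fits, the cause of these shifts was not tested. Depth limits low genes most: Mcmdc2 rests on 13 counts in RGS4KO naive.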

Other observations

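Of 25 tested ependymal and ciliary genes, which drive the beating of cilia on the ventricle wall, 5 were higher and 0 lower at an unadjusted p under 0.05, and 0 were called. Over all tested genes 4.47% were higher and 5.39% lower at that level, for this list and those that follow. The median interaction of the list was 0.26, and Hydin, a part of the ciliary axoneme, had one of 0.33 (adjusted p = 0.433). GABA and glycine genes had 0 higher and 4 lower of 27, with Glrb, the beta subunit of the glycine receptor, at -0.19 (adjusted p = 0.222). Astrocyte markers had 0 higher and 3 lower of 18, with the glutamate transporter Slc1a2 at -0.17 (adjusted p = 0.3).

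Calcb, which encodes a calcitonin gene-related peptide, had means of 0.345 CPM in WT naive, 1.68 in WT CFA, 0.955 in RGS4KO naive and 0.902 in RGS4KO CFA, with an interaction of -2.16 (adjusted p = 0.225). It stands on the Edinger-Westphal list as well as among the neuropeptides. Calca, its close relative, had an interaction of -0.70 (adjusted p = 0.326). Of 78 ribosomal protein genes, 1 was higher and 0 lower at an unadjusted p under 0.05, with a median of 0.03. Calcb and Calca were named after their values were seen.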
